A study of Mus musculus with 4 samples.

Results

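Transcripts of 33 listed genes of the cell cycle and of DNA replication were examined in Usp2 knockout (Usp2-KO) kidneys and in kidneys of wild-type (WT) littermates, taken whole. The genes were listed by name, from the cyclins and their kinases to the replicative helicase and the spindle checkpoint, by a rule that uses no measured value, although earlier results of these data were known when the list was made. Of the 33, 32 had an array row paired with that gene symbol alone, out of 19934 genes tested, and Ccnb1 (cyclin B1) had none and is not analysed here. All animals were male C57BL6/N mice aged 12 weeks, housed for 3 weeks with 12 h of light and 12 h of dark and dissected at Zeitgeber time 12, the time of day at which Usp2 transcript peaks. RNA of 6 Usp2-KO and WT littermate pairs was combined in equal amounts, 3 mice to a pool, which gave 2 WT pools and 2 Usp2-KO pools on 4 arrays, with pools of the same number made from littermates. The labels do not say which part of Usp2 was removed, or in which cells. Variation from animal to animal is partly averaged out within each pool, so p-values measure only the spread between pools, and the number of arrays limits the precision.

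Cells enter division when D-type cyclins with CDK4 and CDK6, and then cyclin E with CDK2, phosphorylate the retinoblastoma protein and release E2F factors, which switch on the genes of DNA synthesis. Cyclin A and cyclin B with CDK1 drive mitosis, and the spindle checkpoint holds anaphase until every chromosome is attached. Most tubule cells of the adult kidney are quiescent and divide mainly after injury, and transcripts of mitotic genes are scarce in such tissue. Usp2 encodes a ubiquitin-specific protease, and cyclin D1 and the mitotic kinase Aurora A are among its reported substrates. These are effects on protein stability, whereas the arrays measure transcripts.

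Promoters of cell cycle genes carry elements that time transcription to a phase of the cycle. Of the members, 7 promoter stretches are shown: 5 because they hold several matches to these elements, and those of Bub1 and Bub1b because these genes had the lowest Usp2-KO minus WT values. RefSeq promoter windows (GRCm38.p6, 250 bases before to 50 after a transcript start) were found for 27 of the 33 genes, and not for Ccnd2, Ccne2, Rb1, Mcm4, Ccna2 and Aurkb. Each stretch gives the 160 bases before the start, 5′ to 3′ on the gene's strand. Capitals mark matches on either strand to CCAAT, the site of the factor NF-Y, to TTTGAA, a form of the cell cycle homology region (CHR) that MuvB complexes bind, and to the E2F forms TTTCCCGC, TTTGGCGC and TTTCGCGC. The first 3 lie before mitotic genes at chr4:118437344-118437503 (minus strand), chr10:69352913-69353072 (minus strand) and chr9:70421555-70421714 (minus strand).
Cdc20: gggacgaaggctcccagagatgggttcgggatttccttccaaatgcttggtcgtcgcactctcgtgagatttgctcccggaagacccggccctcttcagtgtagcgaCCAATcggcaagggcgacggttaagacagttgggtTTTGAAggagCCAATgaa
Cdk1: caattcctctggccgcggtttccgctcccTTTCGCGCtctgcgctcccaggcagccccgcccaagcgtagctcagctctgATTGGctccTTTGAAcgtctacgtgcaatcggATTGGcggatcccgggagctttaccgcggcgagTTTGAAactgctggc
Ccnb2: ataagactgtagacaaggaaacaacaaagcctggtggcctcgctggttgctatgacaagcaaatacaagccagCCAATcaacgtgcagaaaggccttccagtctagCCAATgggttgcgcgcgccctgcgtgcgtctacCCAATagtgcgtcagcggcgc

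The next pair lie before spindle checkpoint genes, at chr2:127831860-127832019 (minus strand) and chr2:118598051-118598210 (plus strand). The TTTGAA match of Bub1b lies after the start and is not in the stretch.
Bub1: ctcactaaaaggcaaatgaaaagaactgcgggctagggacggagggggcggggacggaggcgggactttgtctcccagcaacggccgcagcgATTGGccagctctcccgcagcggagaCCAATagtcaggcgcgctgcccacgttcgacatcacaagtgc
Bub1b: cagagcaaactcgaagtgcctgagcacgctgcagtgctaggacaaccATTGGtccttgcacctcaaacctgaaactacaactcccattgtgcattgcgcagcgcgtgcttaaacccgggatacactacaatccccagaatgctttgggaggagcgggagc

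The last pair lie before subunits of the replicative helicase, at chr8:75109349-75109508 (plus strand) and chr1:128359706-128359865 (minus strand). In each of them 2 E2F forms overlap, so that they read as 1 longer run of capitals.
Mcm5: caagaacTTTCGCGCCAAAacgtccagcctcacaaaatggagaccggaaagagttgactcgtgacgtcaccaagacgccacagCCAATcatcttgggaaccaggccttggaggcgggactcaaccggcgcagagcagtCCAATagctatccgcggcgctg
Mcm6: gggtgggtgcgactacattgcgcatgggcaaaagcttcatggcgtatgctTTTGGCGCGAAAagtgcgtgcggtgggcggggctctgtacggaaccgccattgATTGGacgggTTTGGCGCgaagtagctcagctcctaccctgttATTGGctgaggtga

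CCAAT occurred in 21 of the 29 windows of members (72.4%), against 37.4% of all 32851 windows in the table. CCAAT and TTTGAA occurred together in 9 of 29 (31%), against 6.95% of all windows. An E2F form occurred in 6 of 29 (20.7%), against 1.84%. These are matches of letters in windows, not sites shown to be bound.

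The knockout was visible on the arrays: Usp2 read 11.63 and 11.71 on the log2 scale in the WT pools and 7.65 and 7.60 in the Usp2-KO pools. Kidney markers were present in every pool, with log2 values of 14.03 to 14.06 for Slc34a1, the phosphate transporter of the proximal tubule, and of 10.62 to 10.80 for Aqp2, the water channel of the collecting duct. Tubule markers were not all alike between the genotypes: Calb1, of the distal tubule, read 10.80 and 10.83 in the WT pools and 11.14 and 11.38 in the Usp2-KO pools, with a limma adjusted p of 0.286, or 0.00391 with the littermate block. Of the 5 thick limb and distal tubule markers 2 were higher in Usp2-KO, Calb1 and Slc12a1 (0.13). The other 3 were lower: Slc12a3 (-0.06), Pvalb (-0.08) and Umod (-0.04). Scnn1g, a sodium channel subunit gene of the collecting duct, differed by 0.18 (limma adjusted p = 0.507). Of other cell types, the 7 measured leukocyte markers had mean log2 values of 7.60 and 7.65 in the WT pools and 7.62 and 7.60 in the Usp2-KO pools. Single leukocyte markers went both ways: the T cell gene Cd3e differed by -0.23 (limma adjusted p = 0.385), and Ptprc and Lyz2 each by 0.11. All 5 measured adipocyte markers were lower in Usp2-KO, with means of 7.37 and 7.36 against 6.79 and 7.27, and so were all 4 pancreatic ones, with 6.50 and 6.46 against 6.34 and 6.32. Alas2, the 1 red cell marker measured, differed by -0.38 (limma adjusted p = 0.340, or 0.0264 with the littermate block). With that block the adipocyte markers Adipoq, Cidec and Retn also had a limma adjusted p under 0.05. All 4 endothelial markers were lower in Usp2-KO, by -0.09 to -0.02. Of 3 measured podocyte markers Nphs1 was higher (0.19), and Podxl (-0.01) and Synpo (-0.12) were lower. The part of other cell types and tissues in the values that follow was not tested.

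No cell cycle or replication gene passed the threshold between the genotypes. In the limma comparison of Usp2-KO with WT kidney, 0 of 32 members had an adjusted p under 0.05, where 0.00502% of all genes passed (Usp2 alone), and the smallest adjusted p among members was 0.533. At an unadjusted p under 0.05 there were 0 members on the higher side, against 5.22% of all genes, and 1 on the lower side (3.12% of members), against 3.88% of all genes. With littermate pools as a block, 0 of 32 members passed, against 0.768% of all genes. In that fit 0 members on the higher side and 1 on the lower side had an unadjusted p under 0.05, against 5.28% and 3.94% of all genes. The share of members past either limit was thus no larger than the background. An exact permutation test of 2 pools against 2 cannot give a two-sided p below 0.333, so it cannot separate the genotypes for any gene.

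The differences in array signal were small, and the data bound them. Across the 32 members the Usp2-KO minus WT difference ran from -0.24 (Bub1) to 0.18 (Rb1) on the log2 scale, with a median of -0.02, against -0.01 over all genes. Higher values in Usp2-KO were found for 14 members and lower ones for 18. The median size of the difference was 0.05, against 0.07 over all genes, and the median SD between pools of a genotype was 0.06, against 0.07. In 26 of 32 members at least 1 pair of pools of the same genotype lay further apart than the genotype means did. No share of all genes stands beside this count, so it is not read as a trait of the members. The 95% confidence interval of limma reached 0.17 to either side for the median member. It lay within -0.5 to 0.5 for 31 of 32 members, all but Bub1, and within -0.25 to 0.25 for 21. Missing the threshold does not show that a gene was equal in the genotypes. These intervals give the sizes of difference in array signal that the pools allow. For the 6 members near background, named below, they bound the signal rather than the transcript.

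**Figure D1:**
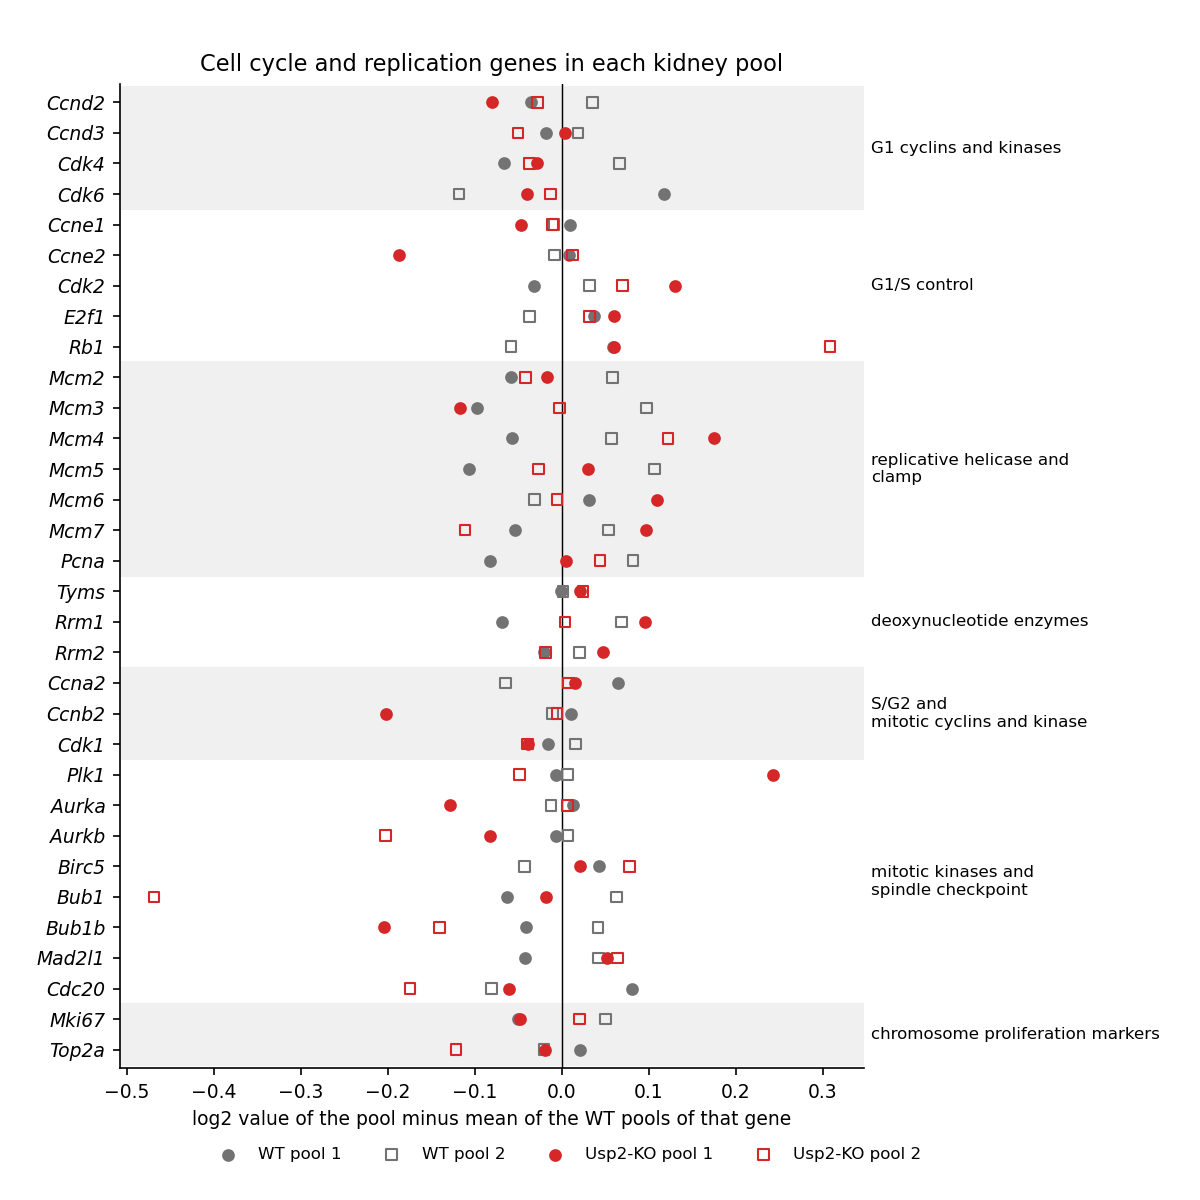
Log2 value of each pool minus the mean of the WT pools, for the 32 measured cell cycle and replication genes (rows, grouped by role). Grey symbols are WT pools, red symbols are Usp2-KO pools, circles are pool 1 and open squares are pool 2; red and grey mix in most rows, and the single pools farthest out are Usp2-KO pool 2 for Bub1 and Rb1 and Usp2-KO pool 1 for Plk1.

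**Figure D2:**
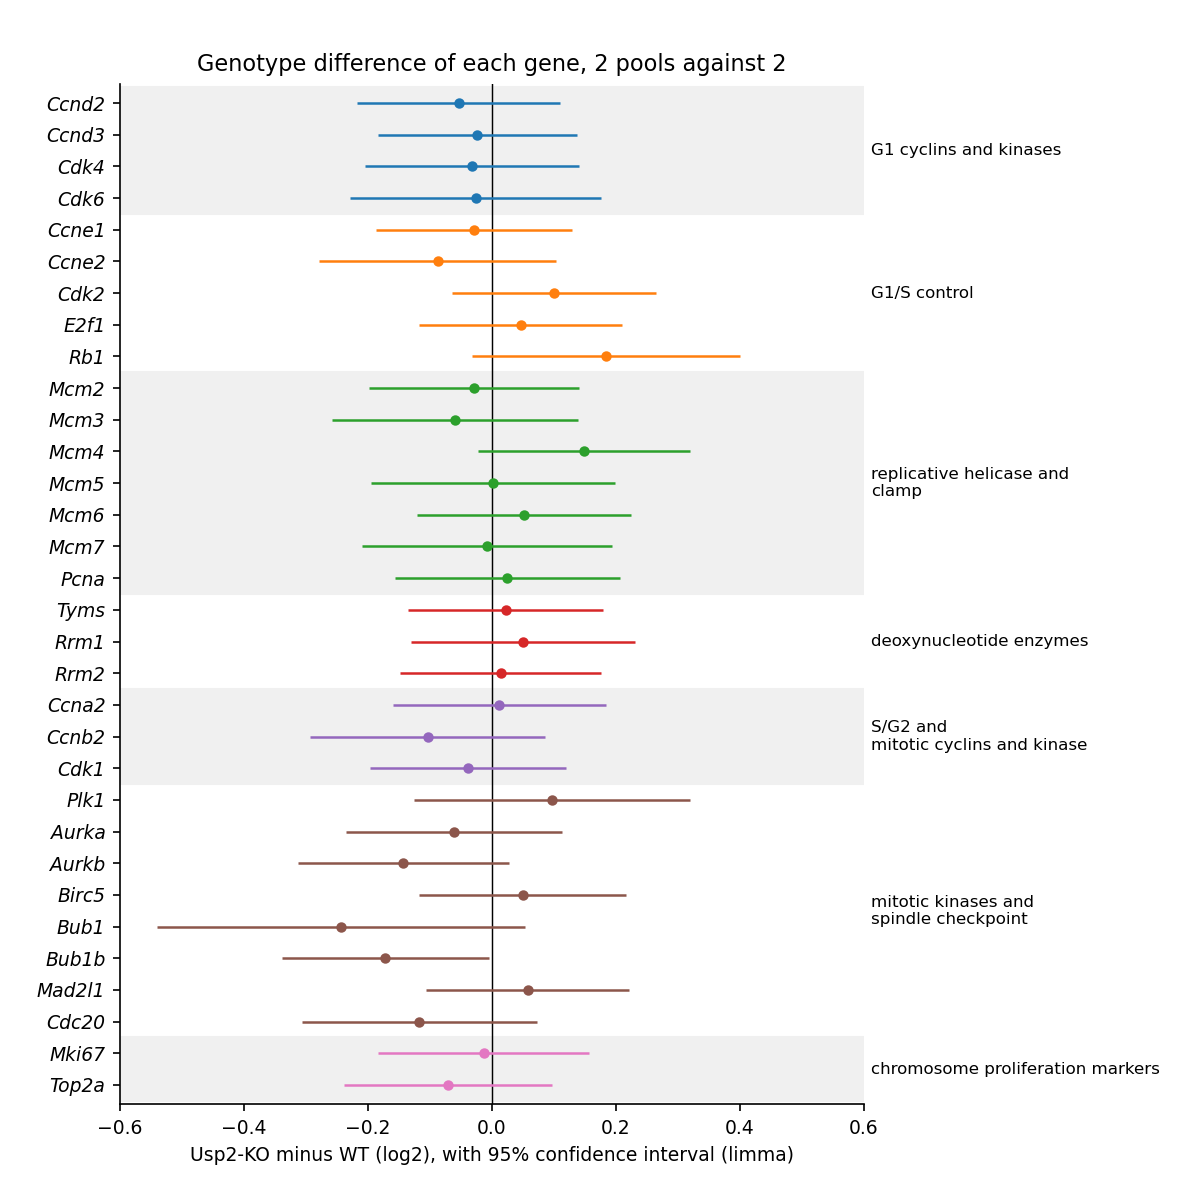
Usp2-KO minus WT difference on the log2 scale with its 95% confidence interval from limma, 2 pools against 2, for the same genes in the same order; colours mark roles. The interval of Bub1b ends just below 0, at -0.01, and every other interval spans 0.

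The pools of the 2 genotypes did not overlap for 9 members. Both Usp2-KO pools lay above both WT pools for 5 of 32 (15.6%), which were Cdk2, Rb1, Mcm4, Tyms and Mad2l1, against 19.8% of all genes. Both lay below for 4 of 32 (12.5%), which were Ccne1, Cdk1, Aurkb and Bub1b, against 19.1% of all genes. Littermate pools gave the same sign in 15 of 32 members, against 51.5% of all genes. Neither count of separated members was above the share of all genes.

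Among the genes that act at the entry into the cycle no difference passed the threshold. Ccnd2 and Ccnd3, D-type cyclins, differed by -0.05 (SE 0.07) and -0.02 (SE 0.07). Their kinase partners Cdk4 and Cdk6 differed by -0.03 (SE 0.08) and -0.03 (SE 0.09). Cdk6 read 10.50 and 10.27 in the WT pools and 10.34 and 10.37 in the Usp2-KO pools, so both Usp2-KO values lay between the WT ones. All 4 of these genes had negative values, each smaller in size than the wider of the distances between pools of one genotype.

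Ccnd1, which encodes cyclin D1 and is not among the 33 genes, read 11.25 and 11.24 in the WT pools and 11.29 and 11.36 in the Usp2-KO pools. Its difference was 0.08 (95% confidence interval -0.08 to 0.24). The groups did not overlap, but the interval spans 0.

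Among the genes that control passage from G1 into S phase, Rb1 had the largest difference. Rb1, which encodes the retinoblastoma protein that restrains E2F factors, read 9.50 and 9.38 in the WT pools and 9.50 and 9.75 in the Usp2-KO pools. The first WT and the first Usp2-KO pool were nearly equal, and Usp2-KO pool 2 stood above the other pools. The difference was 0.18 (SE 0.10, 95% confidence interval -0.03 to 0.40), with a limma adjusted p of 0.61. It was 0.00 between the pool 1 littermates and 0.37 between the pool 2 littermates. Leaving out Usp2-KO pool 2 gave 0.06, and leaving out Usp2-KO pool 1 gave 0.31. Rb1 is a long gene, at percentile 92.0 of gene length. Longer genes had higher Usp2-KO minus WT values over the whole array (Spearman rho 0.19 over 19852 genes, which share 4 arrays and are not replicates), while rho was -0.12 over the 32 members. The part of length in the value of Rb1 was not tested.

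Cdk2, the kinase partner of cyclin E, read 8.03 and 8.10 in the WT pools and 8.20 and 8.13 in the Usp2-KO pools. The pools did not overlap, and the difference was 0.10 (SE 0.07). E2f1, a transcription factor of S phase genes, differed by 0.05 (SE 0.07). The cyclin E genes Ccne1 and Ccne2 differed by -0.03 (SE 0.07) and -0.09 (SE 0.08). Ccne2 was low in Usp2-KO pool 1, at 5.13, while the other pools lay between 5.31 and 5.33.

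The replicative helicase is a ring of 6 different MCM proteins, and its genes showed no common direction. Mcm4 read 7.33 and 7.44 in the WT pools and 7.56 and 7.51 in the Usp2-KO pools. Both Usp2-KO pools were above both WT pools, and the difference was 0.15 (SE 0.08, 95% confidence interval -0.02 to 0.32, limma adjusted p = 0.601). It was 0.09 without WT pool 1, the lower of the WT pools. Mcm6 differed by 0.05 (SE 0.08), Mcm5 by 0.00 (SE 0.09) and Mcm7 by -0.01 (SE 0.09). Mcm2 and Mcm3 differed by -0.03 (SE 0.07) and -0.06 (SE 0.09). For Mcm5 the littermate differences were 0.14 and -0.13, and for Mcm7 they were 0.15 and -0.17, so the 2 pairs pointed in opposite directions.

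Pcna, the sliding clamp that tethers DNA polymerases, read 9.66 and 9.82 in the WT pools and 9.74 and 9.78 in the Usp2-KO pools. Both Usp2-KO values fell between the WT values, and the difference was 0.02 (SE 0.08). A second array row for Pcna gave 0.01. Among the enzymes that supply deoxynucleotides no gene passed the threshold. Tyms, thymidylate synthase, read 8.41 and 8.41 in the WT pools and 8.43 and 8.44 in the Usp2-KO pools. These pools did not overlap, yet the difference was only 0.02 (SE 0.07). The ribonucleotide reductase subunit genes Rrm1 and Rrm2 differed by 0.05 (SE 0.08) and 0.01 (SE 0.07).

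Among the cyclins of S phase and mitosis, Ccnb2, cyclin B2, read 7.54 and 7.52 in the WT pools and 7.33 and 7.52 in the Usp2-KO pools. Only Usp2-KO pool 1 was low, and the difference was -0.10 (SE 0.08). It was -0.21 between the pool 1 littermates and 0.01 between the pool 2 littermates, and leaving out Usp2-KO pool 1 gave -0.0055. Ccna2, cyclin A2, differed by 0.01 (SE 0.08). Cdk1, the kinase that both cyclins activate, read 6.95 and 6.98 in the WT pools and 6.93 and 6.93 in the Usp2-KO pools. Its pools did not overlap, and the difference was -0.04 (SE 0.07), within the spread that limma assigns to it.

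The spindle checkpoint held both the member of smallest p and the one of largest difference. Bub1b (probe set 10474769), which encodes the checkpoint protein BubR1, read 6.28 and 6.36 in the WT pools and 6.11 and 6.18 in the Usp2-KO pools. Means were 6.32 ± 0.06 and 6.15 ± 0.05 (SD, n = 2 pools each). Both Usp2-KO pools were below both WT pools, and the littermate differences were -0.16 and -0.18. The difference was -0.17 (SE 0.07, 95% confidence interval -0.34 to -0.01), or 0.887-fold, with a limma unadjusted p of 0.0443 and adjusted p of 0.533. The unadjusted p was 0.0676 with the littermate block, and it lay between 0.0524 and 0.218 when any 1 pool was left out.

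Bub1, a kinetochore kinase that recruits checkpoint proteins, read 5.35 and 5.48 in the WT pools and 5.40 and 4.95 in the Usp2-KO pools. Usp2-KO pool 2 stood below every other pool and differed from Usp2-KO pool 1 by -0.45, while Usp2-KO pool 1 lay between the WT pools. The difference of -0.24 (SE 0.13, 95% confidence interval -0.54 to 0.05) had a limma adjusted p of 0.624. Leaving out Usp2-KO pool 2 gave -0.02, and leaving out Usp2-KO pool 1 gave -0.47. With the littermate block, a fit that gives nearly all genes the same spread, Bub1 was the 1 member with an unadjusted p under 0.05 (0.0148, adjusted p = 0.323).

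Of the other checkpoint genes, Mad2l1, which encodes MAD2, differed by 0.06 (SE 0.07). Its pools did not overlap, and the difference was 0.016 without WT pool 1. Cdc20, the activator of the anaphase-promoting complex that the checkpoint restrains, read 7.14 and 6.98 in the WT pools and 6.999 and 6.89 in the Usp2-KO pools. Those ranges overlap, and the difference was -0.12 (SE 0.08), or -0.04 without WT pool 1.

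Aurkb, the kinase of the chromosomal passenger complex, read 7.65 and 7.66 in the WT pools and 7.57 and 7.45 in the Usp2-KO pools. Both Usp2-KO pools were lower, and the difference was -0.14 (SE 0.08, 95% confidence interval -0.31 to 0.03, limma adjusted p = 0.614). It was -0.08 without Usp2-KO pool 2. Birc5, survivin, which binds Aurora B in the same complex, differed by 0.05 (SE 0.07).

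Aurka, the spindle pole kinase whose protein is a reported Usp2 substrate, read 7.25 and 7.22 in the WT pools and 7.10 and 7.24 in the Usp2-KO pools. Usp2-KO pool 1 was low and Usp2-KO pool 2 lay between the WT pools. The difference was -0.06 (SE 0.08, 95% confidence interval -0.23 to 0.11). Plk1, polo-like kinase, read 7.20 and 7.21 in the WT pools and 7.45 and 7.16 in the Usp2-KO pools. Usp2-KO pool 1 was above the WT pools and Usp2-KO pool 2 was below them, so the sign of the difference, 0.10 (SE 0.10), depended on the pool. Leaving out Usp2-KO pool 1 gave -0.05, and leaving out Usp2-KO pool 2 gave 0.24.

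The general markers of dividing cells did not separate the genotypes, but both read near background, as set out below. Mki67, which encodes the Ki-67 protein of dividing nuclei, read 6.44 and 6.54 in the WT pools and 6.44 and 6.51 in the Usp2-KO pools. Its difference was -0.01 (95% confidence interval -0.18 to 0.16). Top2a, the topoisomerase that untangles replicated chromosomes, read 6.01 and 5.97 in the WT pools and 5.97 and 5.87 in the Usp2-KO pools. The difference was -0.07 (95% confidence interval -0.24 to 0.10). A second array row of Top2a, with a mean log2 value of 3.04, gave 0.20, so the rows differ in sign. Whole kidney RNA cannot tell fewer dividing cells from less transcript in each.

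How much signal stood behind these values can be judged only roughly, since the table holds no detection calls. The 1027 olfactory receptor genes, most of which are transcribed in the nose and little in kidney, had mean log2 values of which 95% were under 6.67. Of the members, 26 lay above that limit. The 6 at or below it were Ccne2, Mcm3, Bub1, Bub1b, Mki67 and Top2a, which include the gene of smallest p.

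**Figure D3:**
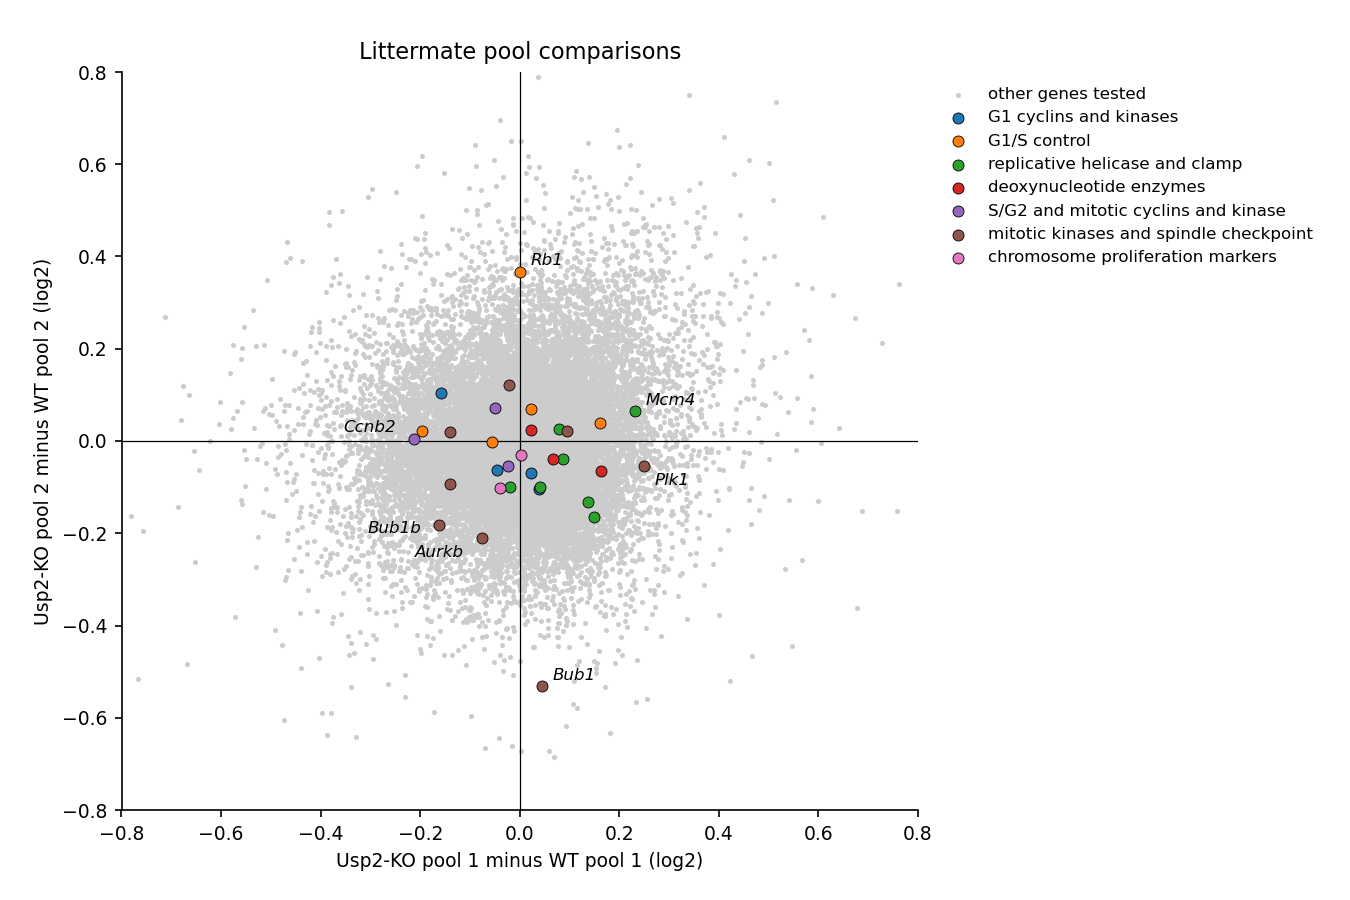
Difference between Usp2-KO and WT littermate pools on the log2 scale, pool 1 (horizontal axis) against pool 2 (vertical axis). Grey points are the other genes tested (17 genes lie outside the axes, which end at 0.8) and coloured points are cell cycle and replication genes by role; Bub1 and Rb1 lie near the vertical axis because 1 of their 2 littermate differences was near 0.

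Members whose window holds both CCAAT and TTTGAA mostly had lower means in Usp2-KO, but less evenly so in the single littermate pairs. The 9 were Aurka, Bub1b, Ccnb2, Cdc20, Cdk1, Mcm2, Mki67, Plk1 and Top2a, and 8 of them had lower values in Usp2-KO, with a median of -0.06. The exception was Plk1. Bub1b, Mki67 and Top2a are at or below the olfactory receptor limit. Of the other 17 measured members with a window, 7 were lower, with a median of 0.01. Between littermate pools, 6 of the 9 were lower for pool 1 and 7 for pool 2, against 4 and 10 of the other 17. Over all 1075 measured genes with this pair in 1 window, 53.2% were lower, against 52.1% of the genes with any window. The 6 members with an E2F form, among them Mcm5 and Mcm6 printed above, had 3 lower and 3 higher values. This grouping was made after the values were seen and was not tested, and 4 of the 8 did not keep their sign throughout: Aurka, Mcm2 and Mki67 when a pool was left out, and Top2a with the mean of its rows.

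The wider machinery of the cell cycle was read from 10 lists of other genes, of which 120 of 122 were measured. The adjusted threshold was passed by 0 of the 120. At an unadjusted p under 0.05 limma gave 9 higher (7.5%, against 5.22% of all genes) and 3 lower (2.5%, against 3.88%). With the littermate block it gave 7 higher (5.83%, against 5.28%) and 3 lower (2.5%, against 3.94%). These shares lie near those of all genes. The median of the 120 was 0.02, with 67 higher and 53 lower, where 47.4% of all genes were higher and 52.4% lower. Leaving out 1 pool, a check chosen after the data were seen, moved the difference by over 1.5 times for 13 of the 20 genes named from these lists and turned the sign of 0. For these 13 genes the omission that shrank the difference most is given below. Leaving out the other pool of that genotype enlarged the difference, for Orc4 to 0.45 without Usp2-KO pool 1.

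Condensin and cohesin genes, whose products fold chromosomes and hold sister chromatids together, had the highest median of the 10 lists, at 0.13. Of the 10, 8 were higher in Usp2-KO and 6 had pools that did not overlap on that side, against 19.8% of all genes. The cohesin genes Smc1a, Smc3, Rad21, Stag1 and Stag2 were higher without overlap, by 0.12 to 0.27. Of the condensin genes, Smc2 (0.13), Smc4 (0.15) and Ncaph (0.08) were higher, and Ncapd2 (-0.09) and Ncapg (-0.02) lower. Smc2, Smc4, Ncaph and Ncapg read below the olfactory receptor limit. Smc3, a core subunit of the cohesin ring, read 7.07 and 7.31 in the WT pools and 7.45 and 7.47 in the Usp2-KO pools. Its difference was 0.27 (SE 0.09, limma adjusted p = 0.416). It was 0.15 without WT pool 1. Stag1, another cohesin subunit, differed by 0.27 (SE 0.09, limma adjusted p = 0.439), and by 0.16 without Usp2-KO pool 2. The genes of this list are long, with a median length percentile of 69.9, and Stag1 is at 98.0. Among the 4963 longest genes of the array 56.9% were higher, and 26.9% had non-overlapping pools on that side. Of this list only Smc2, Stag1 and Stag2 belong to those longest genes, and Smc3, at percentile 74.6, does not. Those shares are thus no background for the list as a whole. The part of length in the values of this list was not tested.

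Origin genes went both ways. Orc4, a subunit of the origin recognition complex, differed by 0.30 (SE 0.10), and by 0.14 without Usp2-KO pool 2. Cdc6, which loads the MCM helicase, differed by -0.21 (SE 0.08), and by -0.11 without WT pool 2. The mean log2 value of Cdc6, 6.59, was below the olfactory receptor limit. Of the 17 genes of the list 10 were higher and 7 lower. At the replication fork, Pold1, the catalytic subunit of DNA polymerase delta, read 7.82 and 7.88 in the WT pools and 7.63 and 7.63 in the Usp2-KO pools. Its difference of -0.23 (SE 0.07) had the smallest unadjusted p of the 120 genes (0.0109, limma adjusted p = 0.393). Rfc3, a subunit of the clamp loader, differed by 0.21 (SE 0.08), and by 0.12 without Usp2-KO pool 1. In that list 8 genes were higher and 11 lower.

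Of 20 kinetochore, spindle and mitotic exit genes 7 were higher and 13 lower. Most of these genes, Prc1 among them (mean log2 value 5.97), read below the olfactory receptor limit of 6.67. The kinetochore gene Spc25 differed by 0.22 (SE 0.07) and the midzone gene Prc1 by 0.19 (SE 0.08), or 0.12 without Usp2-KO pool 2. Of 7 genes of deoxynucleotide supply, Dck, deoxycytidine kinase, differed by -0.20 (SE 0.08), or -0.10 without WT pool 2. Rrm2b differed by 0.14 (SE 0.09), or 0.03 without WT pool 1. The CDK inhibitor list had 4 of 6 higher, where Cdkn2b differed by -0.17 (SE 0.08), or -0.10 without Usp2-KO pool 2, and Cdkn1b by 0.11 (SE 0.08), or 0.07 without WT pool 1. Among 12 genes of cyclin D1, pocket proteins and E2F partners 9 were higher. E2f5 differed by 0.17 (SE 0.07) and E2f2 by -0.14 (SE 0.07), or -0.09 without WT pool 1.

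The remaining lists held no gene with an unadjusted p under 0.05. Cdc27 and Cdc16, subunits of the anaphase-promoting complex, differed by 0.14 and 0.12 (0.045 for Cdc16 without Usp2-KO pool 1), and 9 of that list's 14 genes were higher. Cdk7 and Ccnh, of the kinase that activates other CDKs, differed by 0.14 and 0.13, and 4 of 8 genes of that list were higher. Lin9 and Lin54, subunits of the MuvB complex that binds the CHR, differed by 0.11 and 0.07 (0.06 for Lin9 without Usp2-KO pool 1), with 4 of 7 higher. The mean log2 value of Lin9, 6.00, was below the olfactory receptor limit.

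**Figure D4:**
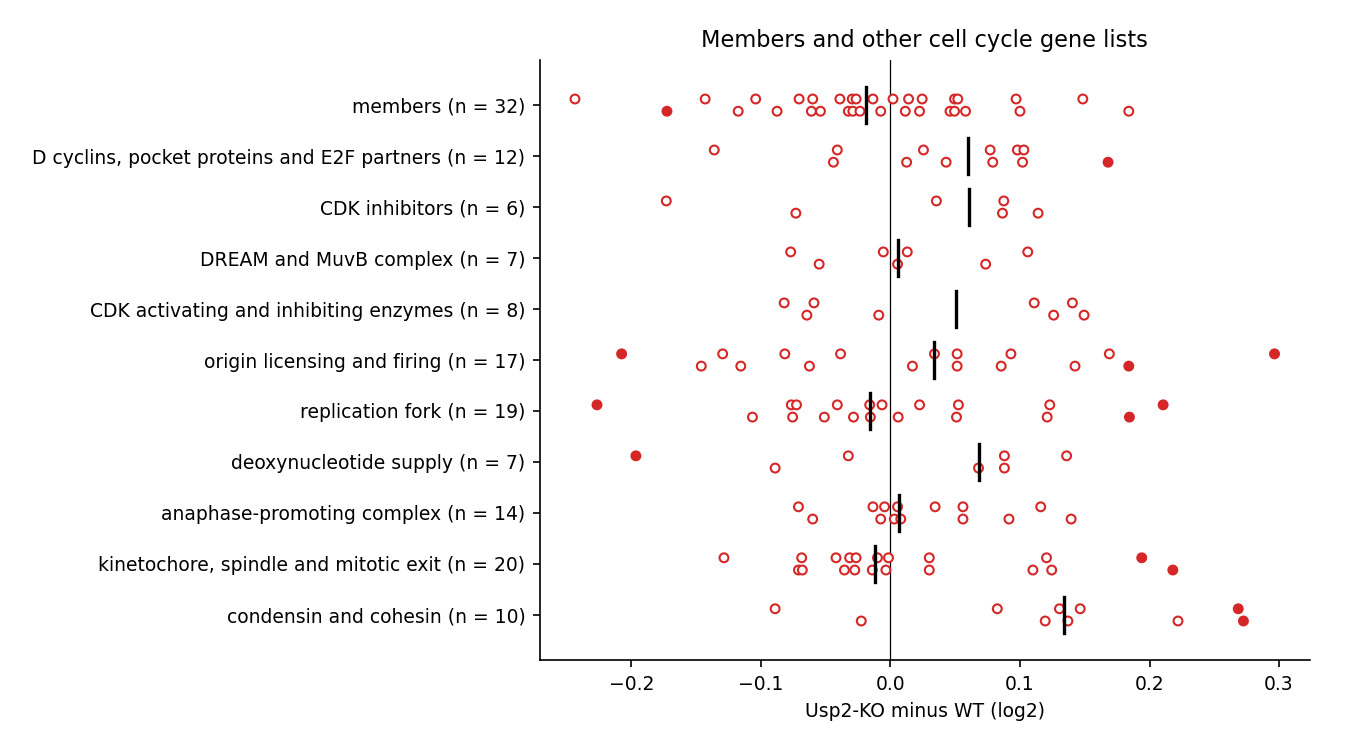
Usp2-KO minus WT difference on the log2 scale for the 32 measured members and for 10 lists of other cell cycle genes, with 1 point per gene and a black bar at each median. Filled points have an unadjusted limma p under 0.05; the medians lie between -0.02 and 0.13, and none of the genes shown passed the adjusted threshold.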

How the data were processed

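The deposited table holds log2 expression values of 28270 array rows in 4 arrays, made by the authors with RMA (background correction, quantile normalization and summary per probe set), per the submitters' processing notes. The software version, a genome build and any removal of rows are not given in the sources used here. For each array 300 ng of pooled RNA was labelled by an Affymetrix whole-transcript protocol, per the labels. RMA assumes similar overall distributions, so a shift shared by most genes would not be seen.

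Rows were named by the platform annotation: 21780 had 1 gene symbol, 1617 several and 4873 none, and only the first were used. For each gene the row of highest mean was kept, which left 19934 genes. Identifiers of all 32 measured members matched a RefSeq gene table (GRCm38.p6), which also gave gene lengths. Promoter sequences are from RefSeq (GRCm38.p6).

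R 4.3.3 and limma 3.58.1 gave the Usp2-KO minus WT difference of every gene (linear model, empirical Bayes variance), with Benjamini-Hochberg adjustment over all genes and a threshold of 0.05. The prior had 6.87 degrees of freedom. The code was tested on simulated data. Same-numbered pools hold littermates, per the series' design text, and a fit with this block was run as an alternative, beside the intensity trend, robust prior, filters on dim rows, mean of rows, renormalization and omission of each pool. Across genes, the difference between the WT pools correlated with that between the Usp2-KO pools at -0.12. In each list of other cell cycle genes the 2 of smallest p were named. Members and lists were chosen with earlier results of these data known, and members given with all pool values, other than Bub1b, were chosen after their values were seen. Figures were drawn with matplotlib 3.10.9.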

Additional observations from a re-analysis of the deposited data

How the results depend on the processing

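The absence of members past the adjusted threshold held in every alternative run: 0 of the members tested passed with the littermate replicate block, an intensity trend, a robust prior, either filter on dim rows, the mean of all rows, repeated quantile normalization, median centring, a threshold of 0.10 and each pool left out in turn. The smallest adjusted p of any member in these was 0.323 and the largest 0.998. The crossed pairing of pools, added after the data were seen, also gave 0 members past the adjusted threshold. At an unadjusted p under 0.05 that fit gave 1 higher and 2 lower. No share of all genes stands beside these counts, so they are not read as a trait of the members. The 1 lower member at an unadjusted p under 0.05 became 0 with an intensity trend, with the filter at the olfactory receptor limit (which removes Bub1b) and with repeated quantile normalization. With the trend 1 member, Rb1, was instead past it on the higher side. When 1 pool was left out, 0 to 1 members were past it on the higher side and 0 to 2 on the lower. Non-overlapping pools numbered 7 to 12 on the higher and 9 to 13 on the lower side, where 1 group is a single pool. Groups separate more easily in fits without 1 pool, so these counts cannot be compared with the 5 and 4 of all pools. In these fits no share of all genes stands beside the counts, so they are not read as a trait of the members. The median difference of the members lay between -0.045 and 0.0145 in those fits, and was 0.00675 with the olfactory receptor limit.

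Of 375 values of single members under the alternatives, 351 kept their sign and 24 did not, 20 of the 24 with a pool left out. The littermate block, trend, robust prior and filters leave the difference itself unchanged, so signs could not turn there. The 351 thus overstates how stable the signs are. In all alternatives 14 members kept their sign. Leaving out 1 pool moved the difference by over 1.5 times in 29 of 32 members, and did not for Cdk2, Tyms and Bub1b. The mean of both rows gave 0.0635 for Top2a. Repeated quantile normalization gave -0.02025 for Mcm5, 0.0239 for Mki67 and -7.5e-04 for Tyms. When pools were left out in turn, the lowest and highest values were -0.1445 and 0.0915 for Cdk6, -0.1045 and 0.1085 for Mcm5, -0.0575 and 0.1065 for Pcna, -0.019 and 0.118 for Rrm1, and -0.019 and 0.047 for Rrm2. They were -0.053 and 0.076 for Ccna2, -0.0985 and 0.0335 for Cdk4, -0.0875 and 0.0285 for Mcm2, -0.157 and 0.037 for Mcm3, and -0.1115 and 0.0965 for Mcm7. They were -0.064 and 0.037 for Mki67, -0.1285 and 0.0065 for Aurka, -0.1875 and 0.0125 for Ccne2, -0.0055 and 0.1095 for Mcm6, -0.0485 and 0.2425 for Plk1, and -0.0505 and 0.0035 for Ccnd3. Where a sign turned with repeated normalization or the mean of rows, the cause was not tested. Signal near background limits the 6 members at or below the olfactory receptor limit.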
